A study of Mus musculus with 12 samples.

Results

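The genes described here encode lysosomal enzymes and membrane proteins in mouse liver. A list of 37 genes was searched for in the table of probe sets that carry exactly 1 gene symbol, and for each gene the probe set with the highest mean over all arrays was used. This gave 33 of the 37 genes, out of 5856 genes in the table. Gla, Glb1, Sgsh and Cd63 were not analysed here. The 33 genes were 11 proteases, 8 glycosidases, 2 sulfatases, 4 lipid and acyl hydrolases, 3 lipid transfer and activator proteins, 4 membrane proteins and the autophagy receptor Sqstm1, and 12 of them had several probe sets.

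Affymetrix mouse genome arrays were used to measure liver mRNA, 1 array per mouse, for 3 mice of each of 4 genotypes. The mice were untreated males aged 8 weeks on the C57BL/6 background. Nrf2-null mice lack the transcription factor Nrf2, encoded by Nfe2l2. Wild-type mice served as the controls. Keap1-KD (Keap1-knockdown) mice make less of Keap1, the protein that marks Nrf2 for degradation, in the whole body. Keap1-HKO (Keap1-hepatocyte knockout) mice came from a cross of Keap1-KD mice with mice carrying AlbCre, a Cre driven by the albumin promoter and active only in hepatocytes, so that the other cells of their livers still carried the knockdown allele. Nrf2 activity rises from Nrf2-null through wild-type and Keap1-KD to Keap1-HKO mice, and the question was whether the mRNA of lysosomal genes followed it.

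Lysosomes are acidic organelles in which proteins, glycans and lipids are broken down. Hydrolases are made in the endoplasmic reticulum, most of them are tagged with mannose 6-phosphate, and receptors carry them to the organelle, where a vacuolar ATPase keeps the lumen acidic and glycoproteins such as Lamp1 and Lamp2 line the membrane. Hepatocytes and Kupffer cells, the macrophages of the liver, are both rich in lysosomes. Many lysosomal genes are known targets of Tfeb and its relatives, which bind E-boxes with the core CACGTG, whereas Nrf2 binds antioxidant response elements with the core TGACNNNGC.

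Values are log2 intensities, and a difference of 1 is a factor of 2. Differences from wild-type were tested with limma in 1 fit over 4 genotypes, with Benjamini-Hochberg adjustment over all 5856 genes, and a difference was called where the adjusted p was under 0.05. Levels of different genes are not compared, because probe sets differ in their response. Nfe2l2 read 2.29 to 2.46 in Nrf2-null mice and 7.93 to 9.03 in the other genotypes. Keap1 read 7.67 to 8.07 in Nrf2-null and wild-type mice, 5.59 to 5.92 in Keap1-KD mice and 3.34 to 3.39 in Keap1-HKO mice. Keap1-HKO replicate 1 and Nrf2-null replicate 1 lay farthest from their genotype means, by 0.601 and 0.387 on average over all genes, against 0.098 to 0.374 for the other 10 arrays. Keap1-HKO replicates 2 and 3 carried pancreas transcripts, with a median of 11.04 to 14.07 over 10 pancreas genes against 2.30 to 2.49 on the other arrays. These 2 arrays and wild-type replicate 2 carried skeletal muscle transcripts, with a median of 9.82 to 11.1 over 7 muscle genes against 2.31 to 3.14 on the other 9 arrays. The part of these transcripts in the results below was not tested.

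Of the 33 genes, Hexa was the one called against wild-type. It encodes the alpha subunit of beta-hexosaminidase, which removes N-acetylhexosamine from gangliosides and other glycans and whose loss causes the storage of GM2 ganglioside. Its mRNA fell in Nrf2-null mice and rose in Keap1-HKO mice. The Nrf2-null arrays read 9.53, 8.81 and 8.96, and the wild-type arrays 10.61, 10.62 and 10.54. The Keap1-KD arrays read 11.21, 10.82 and 10.90, and the Keap1-HKO arrays 11.90, 11.38 and 11.44. No array of one genotype overlapped with an array of another, so that the 4 genotypes formed 4 separate steps.

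The mean un-logged intensity of Hexa in Nrf2-null mice fell by 63.6% ± 5.80 (SEM, n = 3) from wild-type. On the log2 scale the difference was −1.49 (standard error 0.21, 95% interval −1.96 to −1.02, limma adjusted p = 0.0114). Keap1-HKO mice had 100.2% ± 23.8 (SEM, n = 3) more, with a log2 difference of 0.98 (standard error 0.21, 95% interval 0.52 to 1.45, limma adjusted p = 0.0288). In Keap1-KD mice Hexa was 31.8% ± 11.2 (SEM, n = 3) above wild-type, and this log2 difference of 0.39 (95% interval −0.08 to 0.85) did not pass (limma adjusted p = 1). The linear trend across the 4 genotypes, which takes them as equally spaced, gave a slope of 0.78 per step (standard error 0.07, limma adjusted p = 5.06e-05), and the overall test across genotypes gave a limma adjusted p of 0.000321. Arrays that rose stepwise with no overlap over the 4 genotypes were found for 32 of the 5856 genes (0.546%), and among the 33 lysosomal genes for Hexa alone.

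The direction of Hexa held under all 24 alternative settings, but the calls rested on few mice. Its call in Keap1-HKO mice was kept in 17 of them and lost in 7, with adjusted p from 0.00393 to 0.113. It was lost without any one of wild-type replicates 1, 2 and 3 (adjusted p = 0.0912, 0.102 and 0.113), without Keap1-KD replicate 3 (0.0532), and without Keap1-HKO replicate 1 (0.0547) or 3 (0.055), as well as in a fit of the 2 groups alone (0.0998). The call in Nrf2-null mice was kept in 19 settings and lost without any one of the wild-type replicates (0.0644, 0.0627 and 0.0703), without Nrf2-null replicate 3 (0.0654) and in the fit of 2 groups (0.106). The trend was called in all 22 settings in which it was run. Without both arrays that stood apart the log2 fold change was −1.71 in Nrf2-null mice (limma adjusted p = 0.000197) and 0.82 in Keap1-HKO mice (limma adjusted p = 0.00393).

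**Figure D1:**
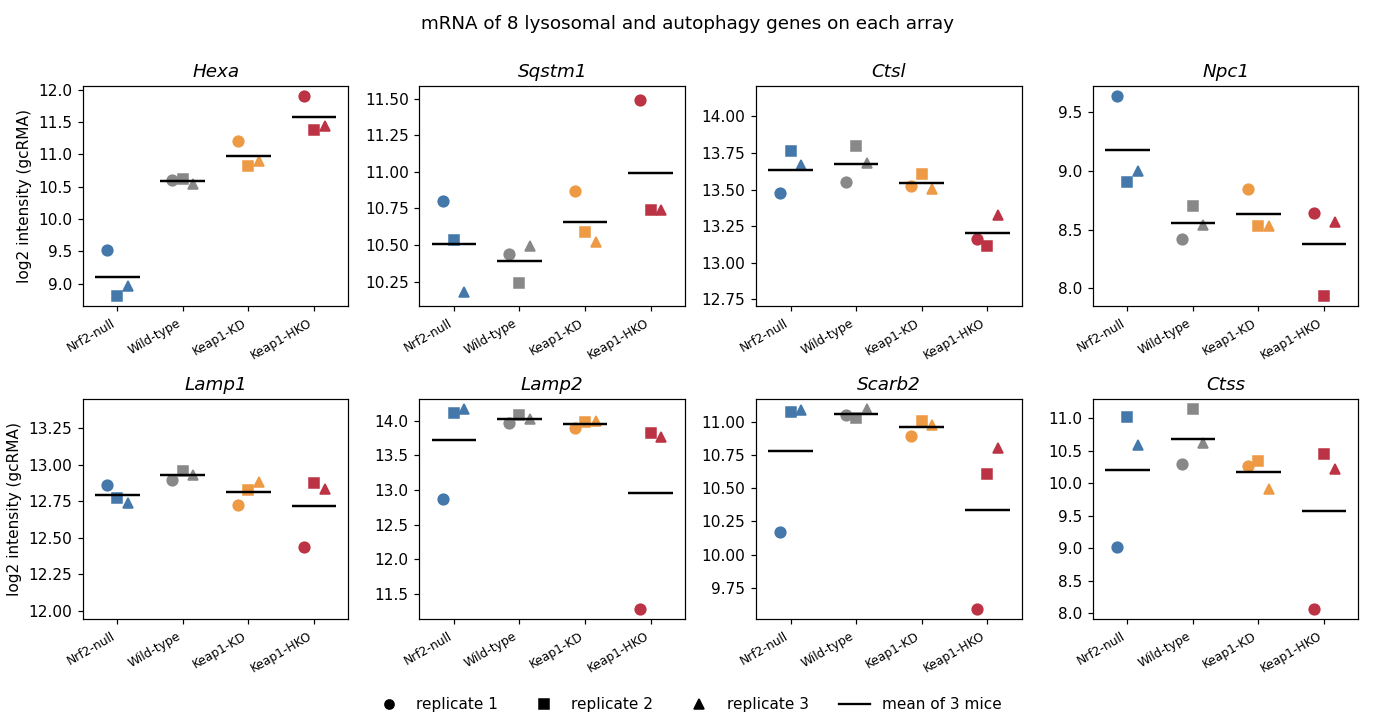
Log2 intensity of Hexa, Sqstm1, Ctsl, Npc1, Lamp1, Lamp2, Scarb2 and Ctss on each of the 12 arrays by genotype, where points are single mice and the bar is the mean of 3. Hexa steps up from 8.81 to 9.53 in Nrf2-null mice to 11.38 to 11.90 in Keap1-HKO mice with no overlap between genotypes, whereas Keap1-HKO replicate 1 lies far below its group in Lamp2 and Ctss.

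The promoter windows of 4 of these genes are shown to set the gene that was called against wild-type beside genes that were not. Hexa is the gene called, Sqstm1 is a known Nrf2 target, Ctsl had the lowest p among the other hydrolases, and Lamp1 has several E-boxes. Each window runs from 250 bases before to 50 bases after the transcription start (RefSeq, build GRCm38.p6), is written 5′ to 3′ on the strand of the gene, and has the matches to TGACNNNGC or CACGTG in capitals.
Hexa, chr9:59539290-59539589, plus strand: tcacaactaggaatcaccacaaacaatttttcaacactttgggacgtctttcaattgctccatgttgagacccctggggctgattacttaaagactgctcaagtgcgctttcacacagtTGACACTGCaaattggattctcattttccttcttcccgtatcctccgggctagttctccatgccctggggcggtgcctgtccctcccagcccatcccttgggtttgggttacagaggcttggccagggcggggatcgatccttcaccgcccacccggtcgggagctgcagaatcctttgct
Sqstm1, chr11:50210771-50211070, minus strand: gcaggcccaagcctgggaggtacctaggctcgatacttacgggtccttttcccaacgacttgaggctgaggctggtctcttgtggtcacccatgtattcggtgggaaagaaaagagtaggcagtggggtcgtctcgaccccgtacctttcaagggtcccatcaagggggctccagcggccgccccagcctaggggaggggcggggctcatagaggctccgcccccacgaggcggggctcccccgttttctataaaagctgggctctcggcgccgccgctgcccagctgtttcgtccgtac
Ctsl, chr13:64370471-64370770, minus strand: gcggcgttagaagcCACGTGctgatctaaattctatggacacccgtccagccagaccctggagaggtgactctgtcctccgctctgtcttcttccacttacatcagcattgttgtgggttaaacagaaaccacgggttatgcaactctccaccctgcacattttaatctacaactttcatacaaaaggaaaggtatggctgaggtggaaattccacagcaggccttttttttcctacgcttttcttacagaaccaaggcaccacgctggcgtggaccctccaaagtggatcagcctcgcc
Lamp1, chr8:13158911-13159210, plus strand: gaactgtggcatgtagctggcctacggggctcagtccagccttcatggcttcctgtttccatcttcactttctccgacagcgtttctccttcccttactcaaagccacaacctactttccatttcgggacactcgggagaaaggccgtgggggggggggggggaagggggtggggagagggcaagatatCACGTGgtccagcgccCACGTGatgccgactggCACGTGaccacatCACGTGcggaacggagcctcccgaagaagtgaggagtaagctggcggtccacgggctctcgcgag

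The Hexa window held 1 match to the antioxidant response element core, TGACACTGC, which starts 131 bases before the transcription start, and no CACGTG. The Sqstm1 window held neither. The Ctsl window held 1 CACGTG, starting 236 bases before the start, and the start that this window is built on lies 252 bases inside the annotated Ctsl gene, so that the match lies within the gene. The windows of Hexa, Sqstm1 and Lamp1 are built on the outer end of the gene. The Lamp1 window held 4, starting 61, 45, 28 and 15 bases before it. A window was at hand for 29 of the 33 genes. Both strands were searched, and the core TGACNNNGC was found in 8 of the 29 (27.6%), namely Ctsd, Ctsz, Scpep1, Tpp1, Hexa, Naglu, Psap and Scarb2. Over the 4822 genes of the table with a window, 17.5% held it. The E-box CACGTG was found in 9 of the 29 (31.0%), against 12.8% of the table's genes. Of the 8 genes with the antioxidant core, Hexa was the one called in any comparison. A match is a string of letters in a window of 300 bases and not a binding site, and no match says nothing about sites outside it.

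Of the other 24 hydrolases limma called 0 against wild-type in any genotype, with Ctsl in Keap1-HKO mice the one at an unadjusted p under 0.05 and the one called by Duncan's test, described further on. In Nrf2-null mice their log2 fold changes had a median of 0.17 and ran from −0.47 for Ctss to 0.53 for Ctsc, so that all 24 lay above the −1.49 of Hexa. In Keap1-HKO mice their median was 0.09, from −1.11 for Ctss to 0.52 for Ctsc, and all 24 lay below the 0.98 of Hexa. In Keap1-KD mice the median was 0.0059, from −0.51 for Ctss to 0.22 for Ctsc, below the 0.39 of Hexa. These are descriptions, since Hexa was set against the others with earlier results known.

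The same was seen array by array. On the 3 Nrf2-null arrays the difference of Hexa from its wild-type mean was −1.06, −1.78 and −1.63, while the median of the other hydrolases lay 0.33, 0.03 and 0.09 above theirs. On the 3 Keap1-HKO arrays Hexa lay 1.31, 0.79 and 0.85 above its wild-type mean, with medians of 0.49, −0.14 and 0.0036 for the others. Of the 24 other hydrolases, 0, 0 and 1 lay above Hexa on the Keap1-HKO arrays, 0, 1 and 1 on the Keap1-KD arrays, and 23, 24 and 24 on the Nrf2-null arrays. The median of 0.49 was on Keap1-HKO replicate 1, the array that stood apart.

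**Figure D2:**
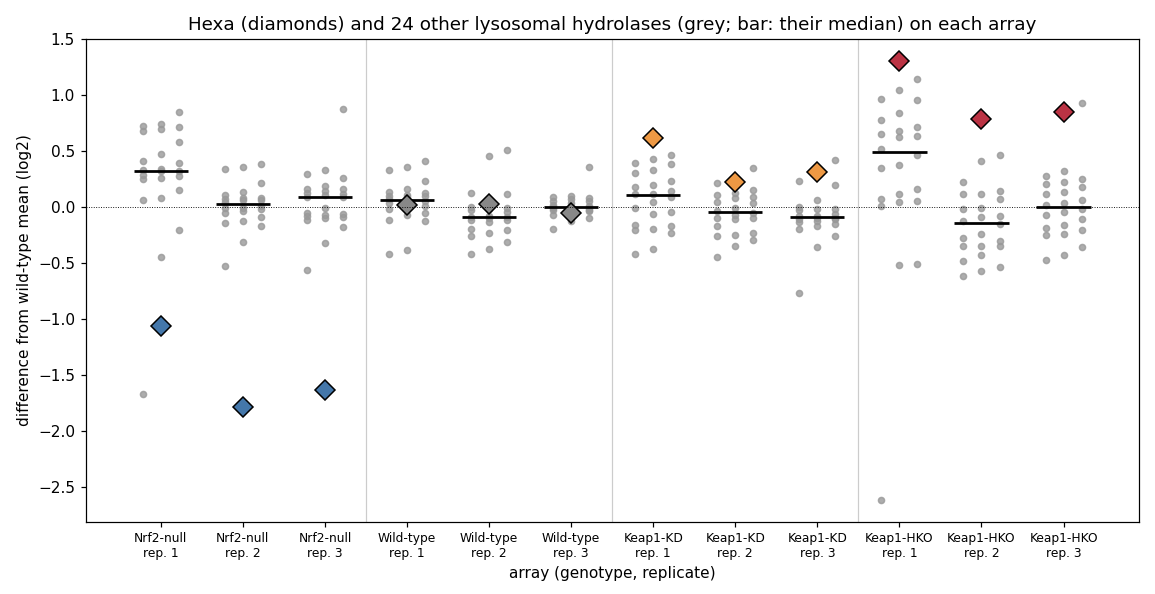
Difference from the wild-type mean in log2 intensity on each of the 12 arrays, with Hexa as a diamond, each of the 24 other hydrolases as a grey point and their median as a bar. Hexa lies below nearly every other hydrolase on the Nrf2-null arrays and above nearly every one on the Keap1-KD and Keap1-HKO arrays, while the median of the others stays between −0.14 and 0.49.

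The calls among the 33 genes were set beside those over all genes. In Nrf2-null mice 1 was called (Hexa, lower), which is 3.03% against 0.41% of all genes. In Keap1-KD mice limma called 0, where 0.0683% of all genes were called, with 0 at an unadjusted p under 0.05 and 0 by Duncan's multiple range test, the test of the methods. In Keap1-HKO mice 1 was called (Hexa, higher), which is 3.03% against 3.94% of all genes. The linear trend called 2 (Hexa rising and Ctsl falling), which is 6.06% against 9.2% of all genes. The overall test called 1 (Hexa), which is 3.03% against 4.83%.

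At an unadjusted limma p under 0.05, there were 2 of the 33 genes in Nrf2-null mice (Npc1 and Hexa), where 6.92% of all genes passed, and 4 in Keap1-HKO mice (Hexa, Sqstm1, Ctsl and Scarb2), where 18.6% passed. For Keap1-KD mice 2.54% of all genes passed. Duncan's test called Hexa in Nrf2-null mice, where it called 5.4% of all genes, and Hexa and Ctsl in Keap1-HKO mice, where it called 12%. In Keap1-KD mice it called 2.25% of all genes. The median log2 fold change of the 33 genes was 0.14 for Nrf2-null, 0.0089 for Keap1-KD and 0.11 for Keap1-HKO mice, against 0.02, −0.0096 and −0.01 over all genes.

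The arrays of a genotype lay entirely above the wild-type arrays for 4 of the 33 genes in Nrf2-null mice (Ctsb, Ctsc, Npc1 and Mcoln1; 12.1% of all genes did) and entirely below for Hexa and Lamp1 (8.76% of all genes). In Keap1-KD mice 3 lay above (Hexa, Arsb and Sqstm1; 7.02% of all genes) and 4 below (Asah1, Ppt1, Lamp1 and Scarb2; 8.21% of all genes). In Keap1-HKO mice 7 lay above (Ctsc, Ctsd, Hexa, Gaa, Ppt1, Psap and Sqstm1), which is 21.2% against 12.7% of all genes, and 4 below (Ctsl, Lamp1, Lamp2 and Scarb2), which is 12.1% against 14.9%.

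Both arrays that stood apart read high for most of these genes. Nrf2-null replicate 1 was the highest of its genotype in 26 of the 33 genes and Keap1-HKO replicate 1 in 24. Without both, limma called Hexa in Nrf2-null mice (1.01% of all genes were then called), 0 of the 33 in Keap1-KD mice (0.12% of all genes), and Hexa, Ctsl and Scarb2 in Keap1-HKO mice (11.5% of all genes). In bulk liver, fewer cells of a type and less RNA per cell cannot be told apart.

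**Figure D3:**
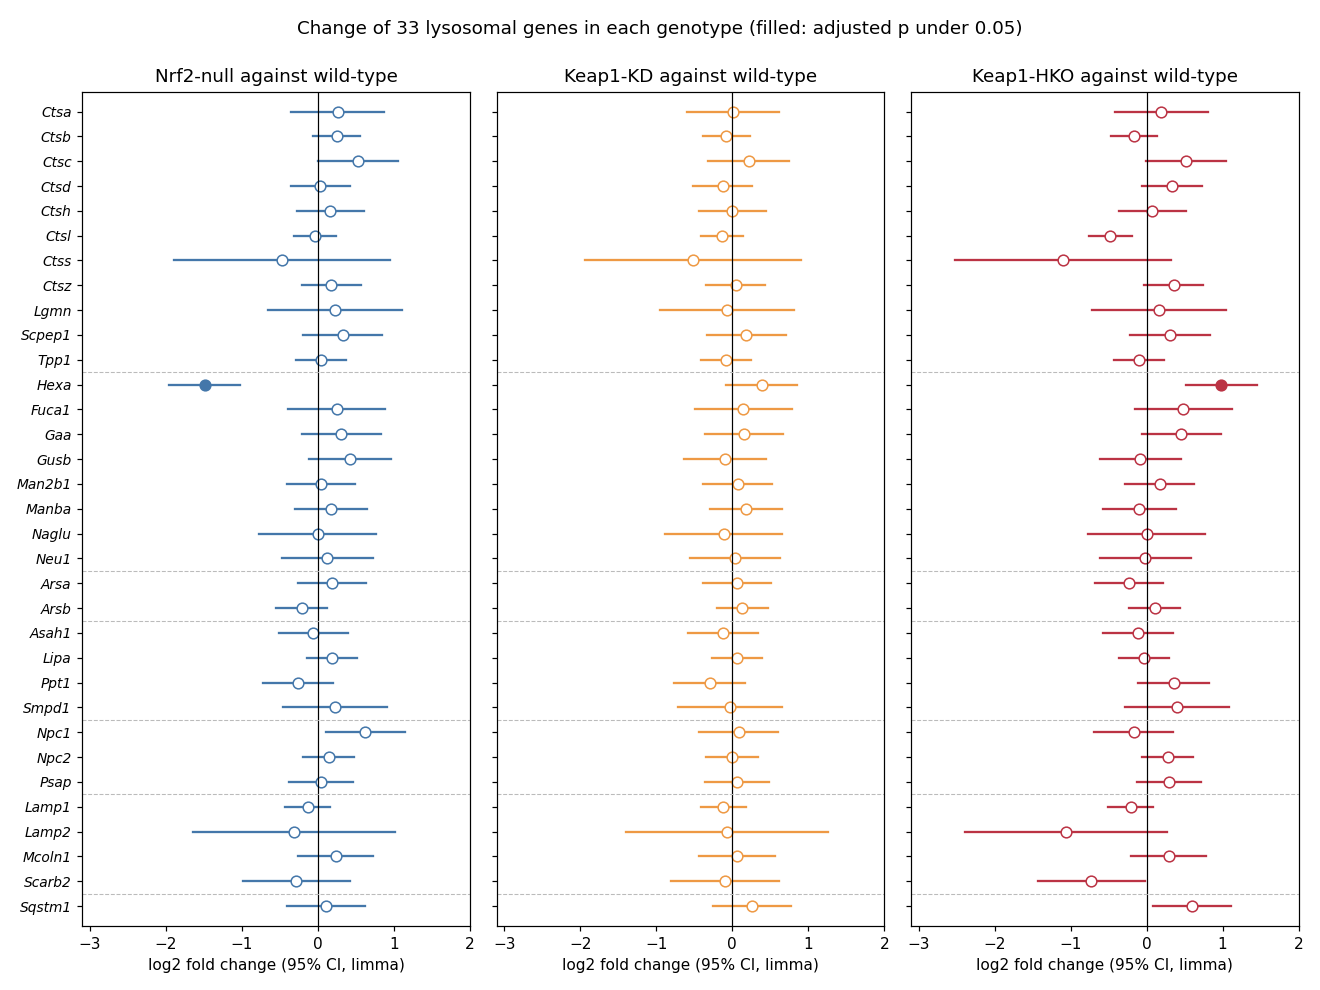
Log2 fold change against wild-type of the 33 lysosomal genes in the Nrf2-null, the Keap1-KD and the Keap1-HKO mice, grouped by role, with 95% intervals of the limma fit and filled points where the adjusted p was under 0.05. The filled points are Hexa in Nrf2-null mice at −1.49 and Hexa in Keap1-HKO mice at 0.98, and the widest intervals are those of Ctss and Lamp2.

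Among the 11 proteases, 0 were called by limma against wild-type in any genotype. At an unadjusted p under 0.05 there was 1 (Ctsl, in Keap1-HKO mice), which Duncan's test called as well. Ctsl encodes cathepsin L, a cysteine endopeptidase. It read 13.47, 13.76 and 13.67 in Nrf2-null, 13.55, 13.80 and 13.68 in wild-type, and 13.52, 13.61 and 13.51 in Keap1-KD mice. In Keap1-HKO mice it read 13.16, 13.11 and 13.33, below every array of the other genotypes. The difference from wild-type was −28.2% ± 3.26 (SEM, n = 3), or −0.48 on the log2 scale (standard error 0.13, 95% interval −0.76 to −0.20, limma adjusted p = 0.0711). It was called in 6 of 24 alternative settings, among them the fit without both arrays that stood apart, where it was −0.46 (limma adjusted p = 0.0292). The trend slope was −0.14 per step (standard error 0.04, limma adjusted p = 0.0491), a call that was kept in 9 of 22 alternative settings and lost in 13, with adjusted p up to 0.16.

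Ctsb encodes cathepsin B, a cysteine protease with endopeptidase and exopeptidase activity. It read 12.87, 12.76 and 12.73 in Nrf2-null mice, 12.60, 12.52 and 12.52 in wild-type mice, 12.67, 12.29 and 12.45 in Keap1-KD mice and 12.56, 12.19 and 12.39 in Keap1-HKO mice. The Nrf2-null arrays lay above all others, and the genotype means stepped down in the order of rising Nrf2 activity. Among the 33 genes such a fall of the means was seen for 2, Ctsb and Tpp1, and over the whole table for 591 of 5856 genes. The slope of Ctsb was −0.13 per step and did not pass (limma adjusted p = 0.1). All 4 probe sets of Ctsb were above wild-type in Nrf2-null mice, by 0.11 to 0.38, and below it in Keap1-HKO mice.

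Ctsc encodes cathepsin C, the dipeptidyl peptidase that activates serine proteases of immune cells. It read 10.25, 10.49 and 10.34 in wild-type mice, and higher both in Nrf2-null mice (10.71, 10.72 and 11.24) and in Keap1-HKO mice (10.52, 10.82 and 11.29). The log2 fold changes were 0.53 and 0.52, and neither passed (limma adjusted p = 0.714 and 0.276). In Keap1-KD mice its arrays overlapped with wild-type, at 10.75, 10.19 and 10.78.

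Ctss encodes cathepsin S, which is made mainly by macrophages and other antigen-presenting cells. It read 9.02, 11.02 and 10.59 in Nrf2-null, 10.30, 11.14 and 10.61 in wild-type, 10.26, 10.34 and 9.92 in Keap1-KD, and 8.07, 10.44 and 10.21 in Keap1-HKO mice. Both arrays that stood apart were the lowest of their genotypes. The difference of −1.11 in Keap1-HKO mice (95% interval −2.53 to 0.32, limma adjusted p = 0.363) was −0.35 without these 2 arrays (limma adjusted p = 0.386). Over 14 Kupffer cell and macrophage markers, of 22 listed, the summed intensity was 7918 to 9709 in Nrf2-null, 7420 to 9797 in wild-type, 6765 to 7218 in Keap1-KD and 7067 to 7588 in Keap1-HKO mice, and 0 of the 14 were called by limma in any comparison with wild-type. At an unadjusted p under 0.05, 0, 1 and 3 of the 14 were in the Nrf2-null, the Keap1-KD and the Keap1-HKO mice, all lower. These shares were 0%, 7.14% and 21.4%, against 6.92%, 2.54% and 18.6% of all genes. Duncan's test called 0 of the 14, against 5.4%, 2.25% and 12% of all genes. The part of macrophages in the Ctss values was not tested.

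The aspartic protease Ctsd and the other proteases Ctsa, Ctsh, Ctsz, Lgmn, Scpep1 and Tpp1 had log2 fold changes from 0.03 to 0.33 in Nrf2-null mice, from −0.12 to 0.19 in Keap1-KD mice and from −0.10 to 0.36 in Keap1-HKO mice, and none of these passed (limma). Ctsd had its 3 Keap1-HKO arrays (10.32, 9.79 and 9.90) just above the highest wild-type array, at 9.78, a difference of 0.33 (limma adjusted p = 0.329). Lgmn, an asparaginyl endopeptidase, was the gene of the 33 with a genotype mean under an intensity of 100, the limit of the methods for an expressed probe set.

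Of the 8 glycosidases, Hexa was the one called. Gaa, the acid alpha-glucosidase that degrades lysosomal glycogen, read 8.948, 9.001 and 9.088 in wild-type and 9.98, 9.16 and 9.27 in Keap1-HKO mice, which did not overlap. Its difference of 0.46 did not pass (limma adjusted p = 0.32), and its other probe set gave 0.66. Without both arrays that stood apart the 0.46 of Gaa became 0.20 (limma adjusted p = 0.232). Fuca1, an alpha-fucosidase, differed by 0.48 in Keap1-HKO mice (limma adjusted p = 0.373), with 11.66 on replicate 1 and 10.73 and 10.89 on the others. Gusb (beta-glucuronidase), Man2b1 and Manba (mannosidases), Naglu (N-acetylglucosaminidase) and Neu1 (sialidase) differed from wild-type by −0.12 to 0.42 over the 3 genotypes, and none of these passed.

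The 2 sulfatases were not called. Arsb, which removes sulfate from dermatan and chondroitin sulfate, read 8.80, 8.20 and 8.56 in Nrf2-null, 8.73, 8.77 and 8.70 in wild-type, 8.78, 8.88 and 8.93 in Keap1-KD, and 8.85, 8.73 and 8.94 in Keap1-HKO mice. Its slope of 0.11 per step did not pass (limma adjusted p = 0.216). Arsa, which acts on sulfatides, differed from wild-type by 0.18, 0.06 and −0.23 in the Nrf2-null, the Keap1-KD and the Keap1-HKO mice.

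Among the 4 lipid and acyl hydrolases 0 were called by limma against wild-type, 0 at an unadjusted p under 0.05 and 0 by Duncan's test. Ppt1, which removes palmitate from proteins, read 7.44, 7.05 and 6.80 in Nrf2-null, 7.40, 7.27 and 7.41 in wild-type, 7.17, 6.91 and 7.10 in Keap1-KD, and 8.14, 7.58 and 7.43 in Keap1-HKO mice. It thus lay below wild-type in Keap1-KD mice, by 0.30, and above it in Keap1-HKO mice, by 0.36 (limma adjusted p = 0.37), and neither passed. Smpd1, the acid sphingomyelinase, differed by 0.39 in Keap1-HKO mice and by 0.02 without both arrays that stood apart. Lipa, the acid lipase that frees cholesterol from its esters, and Asah1, the acid ceramidase, differed by −0.12 to 0.19.

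Npc1, Npc2 and Psap handle lipids inside the lysosome. Npc1, the membrane protein that exports cholesterol, read 9.631, 8.903 and 8.997 in Nrf2-null mice and 8.42, 8.70 and 8.54 in wild-type mice, with no overlap. In Keap1-KD mice it read 8.85, 8.53 and 8.53, and in Keap1-HKO mice 8.64, 7.94 and 8.56. The difference in Nrf2-null mice was 0.63 (standard error 0.24, 95% interval 0.10 to 1.15), with an unadjusted limma p of 0.0241 and an adjusted p of 0.584, and the slope of −0.23 per step had a limma adjusted p of 0.0906. Without both arrays that stood apart the Nrf2-null difference was 0.40 (limma adjusted p = 0.376). Npc2, which hands cholesterol to Npc1, and Psap, the precursor of the saposins, differed by 0.28 and 0.30 in Keap1-HKO mice, and neither passed.

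Of the 4 membrane proteins limma called 0 against wild-type in any genotype, with Scarb2 in Keap1-HKO mice the one at an unadjusted p under 0.05 and 0 by Duncan's test. Lamp1, Lamp2 and Scarb2 had all their Keap1-HKO arrays below the wild-type arrays, as did 14.9% of all genes, and Mcoln1, a cation channel, differed by 0.29. Lamp2, which is also needed for fusion with autophagosomes, read 13.96, 14.09 and 14.03 in wild-type mice and 11.28, 13.83 and 13.77 in Keap1-HKO mice. In Nrf2-null mice it read 12.87, 14.11 and 14.17, and in Keap1-KD mice 13.89, 13.98 and 13.99. Replicate 1 was thus far below the other arrays in both genotypes that hold an array that stood apart. The Keap1-HKO difference of −1.07 (95% interval −2.39 to 0.26, limma adjusted p = 0.351) was −0.23 without these arrays (limma adjusted p = 0.132). The 4 probe sets of Lamp2 gave −1.07, −0.84, −0.12 and −0.32.

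Scarb2, the receptor that carries glucocerebrosidase to the lysosome, read 11.05, 11.03 and 11.10 in wild-type, 10.17, 11.08 and 11.09 in Nrf2-null and 10.90, 11.01 and 10.98 in Keap1-KD mice. The Keap1-HKO arrays read 9.59, 10.60 and 10.81. The Keap1-HKO difference was −0.73 (95% interval −1.44 to −0.02, limma adjusted p = 0.259). Without both arrays that stood apart it was −0.36 and was called (limma adjusted p = 0.042). The other probe set of Scarb2 went the opposite way, at 0.18 in Keap1-HKO mice and 0.39 in Nrf2-null mice, so that the direction depends on the probe set.

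Lamp1, an abundant glycoprotein of the lysosomal membrane, read 12.90, 12.95 and 12.93 in wild-type mice. It read 12.86, 12.77 and 12.74 in Nrf2-null, 12.72, 12.83 and 12.88 in Keap1-KD and 12.44, 12.88 and 12.84 in Keap1-HKO mice. All 9 arrays of the other genotypes were below the wild-type arrays, which were close together, and the differences of −0.14, −0.12 and −0.21 did not pass (limma adjusted p = 0.823, 1 and 0.403). Lamp1 thus did not follow the order of the genotypes.

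Sqstm1 encodes p62, an autophagy receptor that binds ubiquitinated cargo and also Keap1, and it is known as an Nrf2 target. It read 10.80, 10.53 and 10.18 in Nrf2-null mice and 10.44, 10.24 and 10.49 in wild-type mice, which overlapped. The Keap1-KD arrays (10.87, 10.59 and 10.52) and the Keap1-HKO arrays (11.49, 10.74 and 10.74) lay above all wild-type arrays. In Keap1-HKO mice Sqstm1 was 55.7% ± 29.0 (SEM, n = 3) above wild-type, or 0.60 on the log2 scale (standard error 0.23, 95% interval 0.08 to 1.11). This had an unadjusted limma p of 0.0269 and did not pass after adjustment (adjusted p = 0.204). Without both arrays that stood apart it was 0.35 (limma adjusted p = 0.165).

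**Figure D4:**
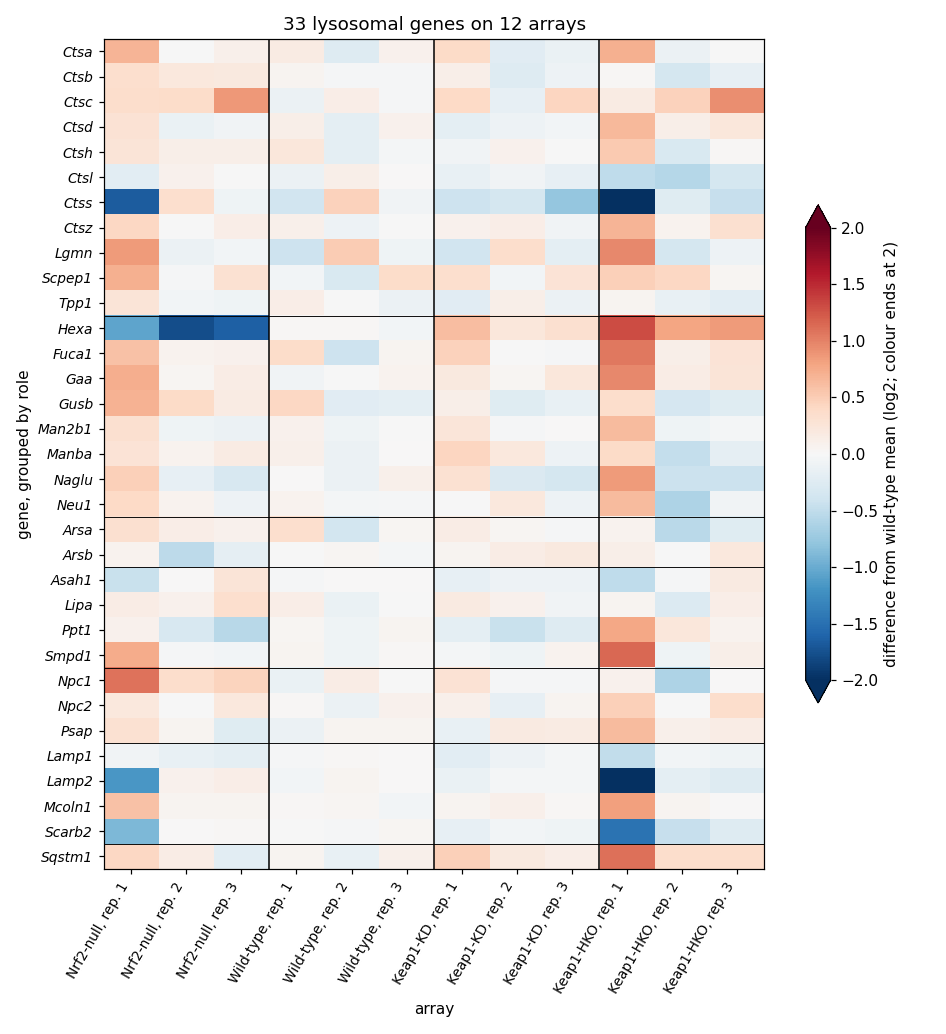
Difference from the wild-type mean in log2 intensity for the 33 lysosomal genes (rows, by role) on the 12 arrays (columns, by genotype), with colours ending at ±2. The row of Hexa changes colour from Nrf2-null to Keap1-HKO mice, and the columns of Nrf2-null replicate 1 and Keap1-HKO replicate 1 differ from the other columns of their genotypes in most rows.

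Other genes of the organelle and of autophagy were taken from a list, of which 70 were measured. In Keap1-HKO mice limma called 2 of the 70 higher (2.86%, against 3.94% of all genes), 12 had an unadjusted p under 0.05 (17.1% against 18.6%; 9 higher and 3 lower) and Duncan's test called 9 (12.9% against 12%). None of these shares stood far from that of all genes. In Nrf2-null mice limma called 0 (4 at an unadjusted p under 0.05 and 4 by Duncan's test), and in Keap1-KD mice 0 (0 and 0). The Nrf2-null counts are each 5.71% of the 70, against 6.92% and 5.4% of all genes. The median log2 fold changes of the 70 were 0.03, 0.02 and 0.15 in the Nrf2-null, the Keap1-KD and the Keap1-HKO mice. The lists within the 70 differed in Keap1-HKO mice. Of 7 measured genes of the mannose phosphate and sorting pathway, 3 had an unadjusted limma p under 0.05 (42.9% against 18.6%). These were 2 higher, among them Sort1, described below, and 1 lower. Duncan's test called 3 of the 7 (42.9% against 12%). Of 21 autophagy genes it was 1 by either measure (4.76%).

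The 2 genes called were Plbd2, a phospholipase B-like protein of the lysosomal lumen, and Sort1, the sorting receptor sortilin. Plbd2 read 5.85, 5.59 and 6.02 in wild-type mice and 7.40, 6.54 and 6.80 in Keap1-HKO mice (limma adjusted p = 0.032). Sort1 read 5.95, 6.15 and 6.06 in wild-type mice and 7.22, 6.65 and 6.63 in Keap1-HKO mice (limma adjusted p = 0.0316). The groups did not overlap in either gene. Both genes were over an intensity of 100, the limit for entering the table, in Keap1-HKO mice alone, as were 5 of the 70 in all, so that a higher level there was built in by that filter and their calls are no support for a rise. Of the genes that did not enter in this way, 0 were called in Keap1-HKO mice. Against the limit Plbd2 was at least 1.21-fold and Sort1 at least 1.14-fold higher. Both calls were lost with a floor at 100 and in 5 of the 12 fits that left out 1 array.

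Across the genotypes the trend called 8 of the 70 genes (11.4%), close to the 9.2% of all genes. Plbd2, Sort1 and Atg14, which acts in autophagosome formation, were 3 of them and entered the table through Keap1-HKO mice alone. The other 5 were M6pr (a mannose 6-phosphate receptor), Gabarapl1 (an autophagosome protein), Wipi1 (which acts in autophagosome formation) and Bnip3 (a mitophagy receptor), which rose, and Acp2, a lysosomal acid phosphatase, which fell. Bnip3 had a slope of 0.24 per step (standard error 0.05, limma adjusted p = 0.0107) and M6pr one of 0.15 (standard error 0.04, limma adjusted p = 0.0248). The slope of Acp2 was −0.15 per step (standard error 0.04, limma adjusted p = 0.0317).

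Gm2a, the activator protein that presents GM2 ganglioside to beta-hexosaminidase, differed from wild-type by 0.11, −0.01 and 0.41 in the Nrf2-null, the Keap1-KD and the Keap1-HKO mice, and the last had a limma adjusted p of 0.424. Of the vacuolar ATPase subunits 14 of 17 were measured, and 0 were called by limma in any comparison with wild-type. At an unadjusted p under 0.05 there were 1, 0 and 3 (7.14%, 0% and 21.4%, against 6.92%, 2.54% and 18.6% of all genes). Duncan's test called 0, 0 and 2 (14.3% for the last, against 5.4%, 2.25% and 12% of all genes). Of 13 listed regulators of the lysosome 9 were measured, again with 0 called, with 0, 0 and 1 at an unadjusted p under 0.05 and 0, 0 and 1 by Duncan's test. In Keap1-HKO mice that is 11.1% by either measure, against 18.6% and 12% of all genes. Tfeb, Tfe3 and Mitf were not analysed here.

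Known targets of Nrf2 were read on the same arrays. Of 13 measured targets limma called 2 lower in Nrf2-null mice (15.4%, against 0.41% of all genes) and 3 higher in Keap1-KD mice (23.1% against 0.0683%). In Keap1-HKO mice 12 were called higher (92.3% against 3.94%). The 13 targets had median log2 fold changes of −0.68, 0.85 and 2.60 in these genotypes. Cbr3, which is among the 12, was over an intensity of 100 in Keap1-HKO mice alone. A higher level there was thus built in by the filter, and the call of Cbr3 is no support for a rise. Nqo1 and Abcc4 had means over 100 in Keap1-KD and Keap1-HKO mice, but not in Nrf2-null or wild-type mice. A higher level with less Keap1 was likewise built in for them, so that calls of Nqo1 and Abcc4 are no support either. Gclc, a subunit of the enzyme that limits glutathione synthesis, rose by 1.54 in Keap1-HKO mice (limma adjusted p = 0.000776), and Txnrd1, thioredoxin reductase 1, by 1.74 (limma adjusted p = 1.79e-05). Gclm, another subunit of the enzyme that Gclc belongs to, was the target not called there, at 0.08. The 0.98 of Hexa lay between these values. In Nrf2-null mice Gclc and Txnrd1 differed by −0.29 and −0.43 and did not pass, and the −1.49 of Hexa was larger in size. The 13 targets ran from −3.63 to 0.03 there. Gstm3 (−3.63, limma adjusted p = 0.00321) and Gstm1 (−2.18, limma adjusted p = 0.0129) fell by more than Hexa, and Ephx1 (−1.42) and Ugdh (−1.21) by somewhat less. Over 7 hepatocyte markers the summed intensity was 286779 to 321966 in Keap1-HKO mice, below the 337643 to 362093 of wild-type mice, while Nrf2-null mice read 361428 to 370140 and Keap1-KD mice 339541 to 348688. Of the 7, 3 (Apoa1, Cps1 and Fgb) had all Keap1-HKO arrays below the wild-type arrays (42.9%, against 14.9% of all genes). The arrays overlapped for Alb, Ttr, Hnf4a and Tat, with Alb at 16.30, 16.22 and 16.45 against 16.30, 16.33 and 16.29. In Keap1-HKO mice limma called 1 of the 7 (14.3%, against 3.94% of all genes), and 3 had an unadjusted p under 0.05 (42.9% against 18.6%). Duncan's test called 3 there (42.9% against 12%), and the limma trend called 3 (42.9% against 9.2%). All of these were lower. What lowered the sum was not tested.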

How the data were processed

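Total RNA of 12 livers was hybridised to 1 array each. The authors made the deposited log2 values in R with affy and gcRMA, which corrects background, normalizes by quantiles and summarizes probe sets, and dropped probe sets whose intensity did not exceed 100 in any genotype. Scanner files were not used. Of 9622 probe sets, 8554 had 1 gene symbol, 371 several and 697 none, and the last 2 kinds were left out. limma 3.58.1 (lmFit, eBayes, R 4.3.3) was fitted over the 4 genotypes (residual degrees of freedom 8, prior 2.19) after tests on simulated data. Trend weights were −3, −1, 1 and 3. Percent changes are of mean un-logged intensities, with the SEM of that genotype. The number of arrays limits the precision (median SD within genotypes 0.291). The methods used analysis of variance with Duncan's multiple range test, run here as an alternative. The members and lists were chosen with earlier results of these data known. Named in full were genes called in any test, Hexa, and 1 or 2 per role with the lowest p; the remaining genes with array values (Ctsb, Ctsc, Ctsd, Ctss, Fuca1, Gaa, Lamp1, Lamp2) were chosen after their values were seen. The other settings were a filter at 200, a floor at 100, a second quantile normalization, median centring, the mean of all probe sets, a robust prior, array weights, 2 groups alone, a replicate block, each array left out and, chosen after seeing the data, the 2 pairs of arrays left out together. Promoter windows are from RefSeq (GRCm38.p6), matched by symbol.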

Additional observations from a re-analysis of the deposited data

How the results depend on the processing

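Over the settings tried, the direction of Hexa held in every comparison, and what changed was the number of calls. Among the 33 genes, array quality weights (which ran from 0.0231 to 9.93) gave 7 calls for Nrf2-null, 2 for Keap1-KD and 2 for Keap1-HKO mice, 9 in the overall test and 5 in the trend. Keap1-HKO replicates 1, 2 and 3 had weights of 0.0692, 1.08 and 0.0231. The weighted values of that genotype thus rest mostly on replicate 2, which carried pancreas transcripts. A fit of the 2 groups alone gave 0 in Nrf2-null and 0 in Keap1-HKO mice, where Hexa stayed at 0.98 with an adjusted p of 0.0998. The robust prior with an intensity trend and Duncan's test each gave 2 in Keap1-HKO mice, and Duncan's analysis 4 in the overall test. With the replicate block there were 2 in Keap1-HKO mice, Hexa and Ctsl (adjusted p = 0.0495 for Ctsl), and 4 in the trend. Replicate numbers are shared between genotypes, but same-numbered arrays deviated together with r from −0.158 to 0.787, over 0.1 in 15 of 18 pairs, against 6 of 36 pairs with other numbers. Since 3 pairs were not over 0.1 and the labels name no shared batch, the numbers were not taken to pair the mice. In 28 of 36 pairings of an array with another genotype, it correlated best with its own number, a hint from the data and not from the design. A second quantile normalization and median centring each gave 1 in the trend. Without both arrays that stood apart there were 3 in Keap1-HKO mice, 2 in the overall test and 8 in the trend. Without both arrays with pancreas transcripts, which leaves Keap1-HKO replicate 1 alone and assumes that it varies like the other groups, there were 19, 5 and 10, and Neu1 turned from −0.01 to 0.64 (adjusted p = 0.0324). Leaving out 1 array gave 0 to 1 in Nrf2-null and in Keap1-HKO mice, 1 to 3 in the trend, and 0.82 to 1.08 for Hexa in Keap1-HKO mice. Of the 70 other lysosomal genes, 0 were called in Keap1-HKO mice with the filter at 200, the floor at 100, the robust prior or 2 groups alone, 9 by Duncan's test, 5 without both arrays that stood apart, 35 without both pancreas arrays and 0 to 3 without 1 array. Of the other values of single genes, 2170 kept direction and call, 130 changed sign without a call in either fit, 31 gained a call, 5 lost one and 1, that of Neu1, was called with the other sign.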
